A study of Homo sapiens with 12 samples.

Results

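The enzymes of glycolysis and gluconeogenesis were followed in THP-1 and U-937 cells, a pair of human acute myeloid leukemia lines with a complex karyotype, after 24 h with the magnolia compound honokiol or with its solvent DMSO at 0.1%. The members were the genes whose pathway column in the deposited table held the KEGG number of glycolysis and gluconeogenesis, except for 1 gene, which left 61 of the 36866 genes of the table. The 12 libraries formed 4 groups of 3, THP-1 with DMSO, THP-1 with honokiol, U-937 with DMSO and U-937 with honokiol, with honokiol set against DMSO in each line and the DMSO groups set against each other. The labels list honokiol at 20 and 35 µM and do not say which line received which dose, so the lines may differ in dose as well as in kind. Nothing in the labels says that the replicates were separate cultures, and the p-values then measure only the spread between these libraries.

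Glycolysis splits glucose into pyruvate in the cytosol. Hexokinases and phosphofructokinase commit the sugar, the lower enzymes harvest ATP and NADH, and lactate dehydrogenase turns pyruvate into lactate to recover NAD+, while the pyruvate dehydrogenase complex carries pyruvate into mitochondrial acetyl-CoA. Gluconeogenesis runs the reversible steps backwards and needs its own enzymes, such as fructose-1,6-bisphosphatase, at the irreversible ones. Leukemic blasts are known for a high use of glucose, and several of the steps have isoforms whose genes are hypoxia or MYC targets.

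The deposited counts summed to 57406966 to 75065752 per library. Levels are given as FPKM (fragments scaled to the length of the transcript and to the size of the library, as deposited), and each comparison was tested with edgeR's quasi-likelihood test on the deposited counts over all genes at 0.5 FPKM or more in at least 3 libraries, with Benjamini-Hochberg adjusted p under 0.05 as the call. DMSO replicate 1 stood apart in both lines, with 13.73% (THP-1) and 12.61% (U-937) of its counts on mitochondrial genes against 5.61% to 7.55% in the other 10 libraries. Of 12 myeloid markers 11 passed the level filter in each line. MPO, the myeloperoxidase of granules, was at 20.2 to 35.3 FPKM in THP-1 and at 0.06 to 0.17 FPKM in U-937, while LYZ (lysozyme) was abundant in both. Of 12 markers of other cell types 4 passed in THP-1 and 2 in U-937, and the T-cell marker CD3E did not exceed 0.04 FPKM. In bulk RNA, fewer cells of a kind and less RNA per cell cannot be told apart.

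Of the 61 genes, 42 passed the level filter in THP-1 and 37 in U-937, and the 37 were all among the 42. ALDH2, ALDH3A2, FBP1, GALM and PFKM passed in THP-1 alone. The other 19 passed in neither line and reached at most 0.47 FPKM (LDHAL6A), among them the liver and testis isoforms PKLR and LDHC and the gluconeogenic PCK1, FBP2 and G6PC2. GAPDH, glyceraldehyde-3-phosphate dehydrogenase, stood highest, at 1319.9, 1577 and 1756 FPKM under DMSO and 1458, 1150.2 and 1259 FPKM under honokiol in THP-1, and at 1294, 1329.7 and 1364 FPKM under DMSO and 1227, 1038 and 1046 FPKM under honokiol in U-937. ENO1, PGAM1, PKM, ALDOA, TPI1, LDHB and PGK1, which with GAPDH cover the lower pathway from aldolase to lactate, also averaged over 100 FPKM across the 12 libraries. A further 18 members averaged 10 to 100 FPKM and 16 averaged 0.5 to 10 FPKM. GAPDH alone made up 41.67% to 45.84% of the summed FPKM of the members in THP-1 and 31.45% to 36.78% in U-937.

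**Figure D1:**
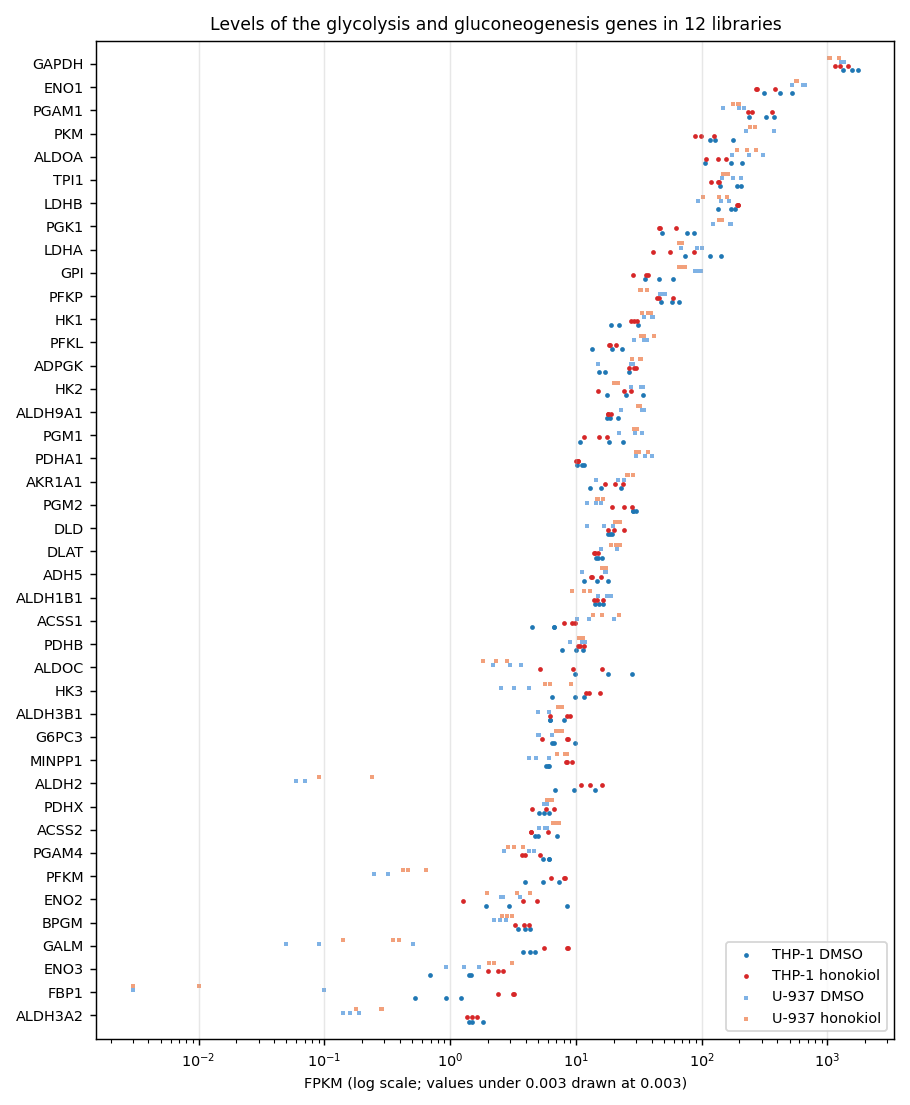
FPKM (x axis, log scale) of the 42 members that passed the level filter in at least 1 line, 1 point per library, with circles for THP-1, squares for U-937, blue for DMSO and red for honokiol. GAPDH lies at 1038 FPKM or more in every library, and ALDH2, PFKM, GALM, FBP1 and ALDH3A2 lie under 1 FPKM in every U-937 library.

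With honokiol, no member passed the test in either line: edgeR called 0 of 42 in THP-1, where it called 0.0411% of the 14600 genes tested, and 0 of 37 in U-937, where it called 0.0947% of 13726. At an unadjusted p under 0.05 there were 13 members in THP-1 (13.1% of all genes tested), 7 of them higher (6.84% of all genes) and 6 lower (6.22%). In U-937 there were 9 (16.7% of all genes), 3 of them higher (8.25%) and 6 lower (8.44%). DESeq2 on the same counts called 2 members in THP-1, FBP1 and GALM, where it called 3.42% of all genes, and 5 in U-937, ALDH1B1, GPI, HK2, HK3 and PFKP, where it called 5.76%. limma called 0 members in either line. In one fit of all 12 libraries edgeR called ALDH1B1 in U-937, beside 1.27% of all genes. The groups did not overlap in FPKM for 10 members in THP-1 (20.6% of all genes) and for 14 in U-937 (24.2% of all genes). These were 7 higher and 3 lower in THP-1 and 9 higher and 5 lower in U-937. The FPKM lack the TMM scaling of the tests, and the 9 include PDHX at an edgeR log2 fold change of 0 (unadjusted p = 0.998). The shares of all genes without overlap by direction are not given here. At an unadjusted p under 0.05, limma on log2(FPKM + 0.5) had 8.57% of all genes higher and 4.94% lower in THP-1. In U-937 it had 11.9% and 5.04%. The median log2 fold change of the members was -0.12 in THP-1 against -0.001 over all genes, and -0.02 in U-937 against 0.02.

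Over all members tested, 26 of 42 had a log2 fold change under 0 in THP-1 and 20 of 37 in U-937, where 50.1% and 48.0% of all genes did. Taking the most abundant gene of each of 12 steps from glucose phosphorylation to pyruvate dehydrogenase, 10 of 12 had a log2 fold change under 0 in THP-1 and 12 of 12 in U-937. For ALDOA, LDHB, PGAM1 and PKM in U-937 the sign turned under some alternatives, and none of the 12 passed the adjusted threshold in either line. The members' summed share of the FPKM of all non-mitochondrial genes was 1.55%, 1.77% and 1.99% in the THP-1 DMSO libraries and 1.67%, 1.31% and 1.38% with honokiol. In U-937 the share was 1.87%, 1.95% and 1.88% under DMSO and 1.70%, 1.62% and 1.61% under honokiol. The groups overlapped in THP-1, where honokiol replicate 1 lay above DMSO replicate 1, and did not overlap in U-937.

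**Figure D2:**
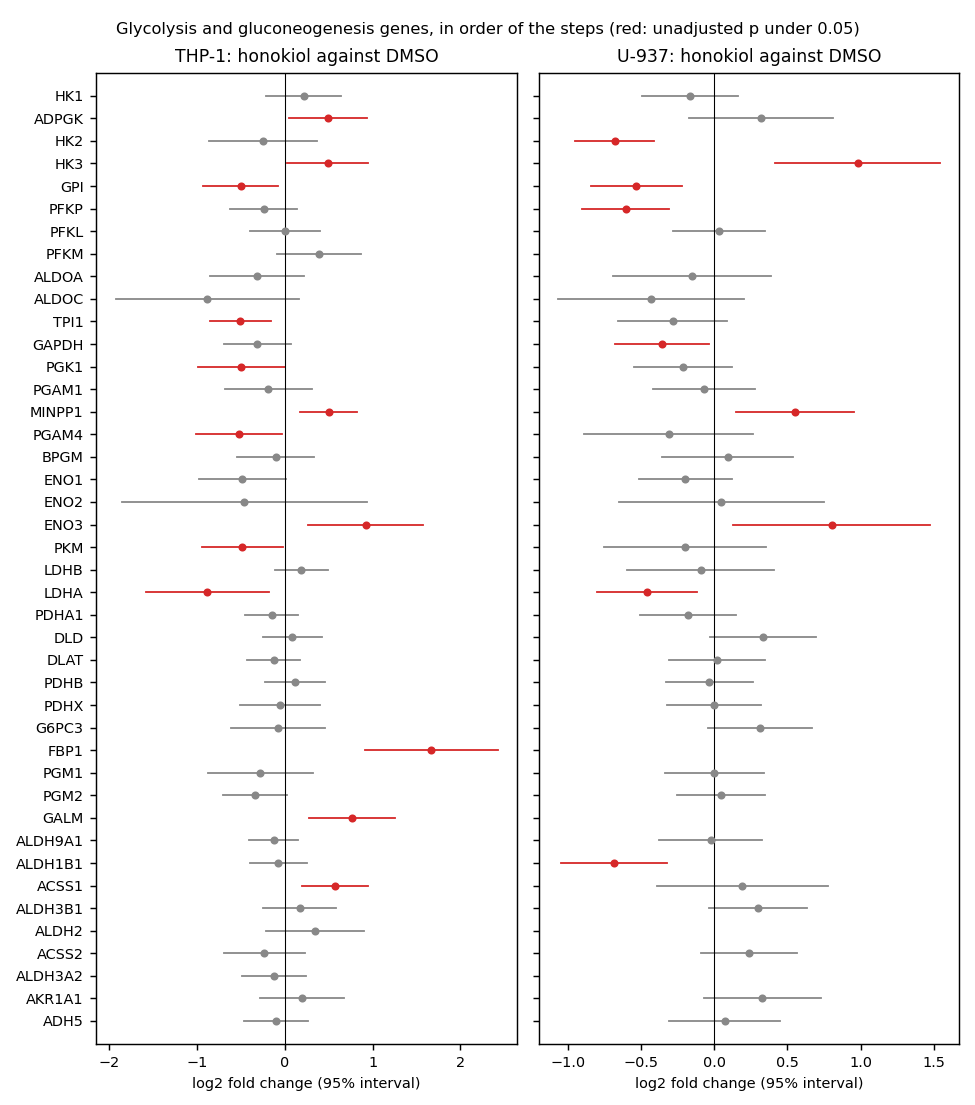
Log2 fold change of honokiol against DMSO (x axis, edgeR, with its 95% interval) for each member tested, THP-1 left and U-937 right, in the order of the steps from glucose phosphorylation at the top, with unadjusted p under 0.05 in red. HK3, MINPP1 and ENO3 lie to the right of 0 in both panels and GPI and LDHA to the left in both. The 2 panels have different x ranges.

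HK3, MINPP1 and ENO3 had an unadjusted p under 0.05 in the higher direction in both lines, GPI and LDHA in the lower direction in both, and no member in opposite directions. The lines have separate controls, and none of these 5 genes passed the adjusted threshold in either. The share of all genes that met the unadjusted threshold in both lines is not given here. Of the 6 fits without a library in a line, MINPP1 kept an unadjusted edgeR p under 0.05 in all, in both lines. In THP-1, HK3 kept it in 2 of 6 and GPI and LDHA in 3 of 6. In U-937, ENO3 kept it in 3 of 6 and LDHA in 5. The sequences before the start of transcription are shown for the genes that were lower in both lines, for HK2 and GAPDH, which were lower in U-937, and for HK3, which was higher in both. They are 250 bases upstream of a RefSeq start on GRCh38.p14, read 5′ to 3′ on the strand of the gene, where a gene had several starts the one nearest to its start in the deposited table. That RefSeq start lay 5512 bases downstream of the deposited one for GPI and 752 bases for GAPDH, so both windows lie inside the gene as deposited, and 0 to 3 bases from it for the other 3. Capitals mark matches of 4 motifs, chosen after the values were seen and searched on both strands. The core of hypoxia response elements is ACGTG. The E-box bound by MYC, which holds that core within it, is spelled CACGTG. The half-site of nuclear receptors was searched as AGGTCA. The core of antioxidant response elements was searched as TGACNNNGC.
LDHA (chr11:18394313-18394562, plus strand): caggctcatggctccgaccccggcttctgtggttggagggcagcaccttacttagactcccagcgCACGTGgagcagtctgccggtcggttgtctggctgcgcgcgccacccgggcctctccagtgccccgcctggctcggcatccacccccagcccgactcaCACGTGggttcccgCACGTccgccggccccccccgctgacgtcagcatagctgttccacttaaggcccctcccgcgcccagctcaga
GPI (chr19:34364742-34364991, plus strand): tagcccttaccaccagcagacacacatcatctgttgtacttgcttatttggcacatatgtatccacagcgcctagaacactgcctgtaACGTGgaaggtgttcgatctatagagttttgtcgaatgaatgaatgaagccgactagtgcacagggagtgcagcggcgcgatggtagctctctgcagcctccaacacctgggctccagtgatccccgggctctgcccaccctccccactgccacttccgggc
HK2 (chr2:74833877-74834126, plus strand): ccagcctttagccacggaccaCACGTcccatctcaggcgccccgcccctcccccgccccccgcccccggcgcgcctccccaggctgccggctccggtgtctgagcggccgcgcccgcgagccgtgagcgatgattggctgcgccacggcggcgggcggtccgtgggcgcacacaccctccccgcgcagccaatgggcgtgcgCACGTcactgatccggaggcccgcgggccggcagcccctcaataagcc
GAPDH (chr12:6535014-6535263, plus strand): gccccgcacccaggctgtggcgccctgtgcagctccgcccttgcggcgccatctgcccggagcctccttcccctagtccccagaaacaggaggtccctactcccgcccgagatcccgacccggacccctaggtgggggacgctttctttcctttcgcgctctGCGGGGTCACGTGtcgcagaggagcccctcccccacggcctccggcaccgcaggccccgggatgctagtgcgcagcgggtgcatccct
HK3 (chr5:176899347-176899596, minus strand): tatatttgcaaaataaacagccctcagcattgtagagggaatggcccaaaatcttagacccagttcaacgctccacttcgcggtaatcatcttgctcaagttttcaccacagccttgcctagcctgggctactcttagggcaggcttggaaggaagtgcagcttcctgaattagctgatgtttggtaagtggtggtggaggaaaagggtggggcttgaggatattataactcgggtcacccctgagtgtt

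In the LDHA window CACGTG occurs at 2 places and ACGTG 5 times with both strands counted, where each CACGTG counts once per strand. In the GAPDH window CACGTG overlaps a match of TGACNNNGC read on the other strand. HK2 holds ACGTG on the other strand at 2 places, GPI holds it at 1, and the HK3 window holds none of the 4 motifs. Those of ENO3, whose RefSeq start lay 2460 bases downstream of the deposited one, and MINPP1 hold none either. ACGTG occurred in 18.5% of 35116 windows of the same kind and in 20 of the 56 members with a window, and CACGTG in 6.34% of windows and in 10 members. Of the members lower at an unadjusted p under 0.05, 5 of 6 in U-937 held ACGTG (ALDH1B1, GAPDH, GPI, HK2 and LDHA, not PFKP) and 3 of 6 in THP-1 (GPI, LDHA and PGK1). Of those higher, 0 of 3 in U-937 and 0 of 7 in THP-1 held it. GPI and LDHA are in the lower set of both lines and ENO3, HK3 and MINPP1 in the higher set of both. The counts of the lines are thus not separate, and a link of ACGTG with direction was not tested. AGGTCA occurred in 12.1% of windows and 2 members, TGACNNNGC in 10.9% and 7 members. These are matches of letters, and binding was not measured.

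At the first step the 3 hexokinases stood in different directions. HK3, the hexokinase of myeloid cells (ENSG00000160883, chr5:176880869-176899346, minus strand in the deposited table), was at 2.52, 4.27 and 3.22 FPKM in the U-937 DMSO libraries and 6.19, 9.11 and 5.70 FPKM with honokiol. Every honokiol library stood above every control (edgeR log2 fold change 0.98, SE 0.24, unadjusted p = 0.00388, adjusted p = 0.14). In THP-1 it was at 6.49, 9.86 and 11.6 FPKM in the DMSO libraries and 12.8, 15.5 and 12.04 FPKM with honokiol, again without overlap (edgeR log2 fold change 0.49, SE 0.20, unadjusted p = 0.0429, adjusted p = 0.366). Leaving out single libraries gave log2 fold changes of 0.32 to 0.65 in THP-1, with the lowest one without DMSO replicate 1, and of 0.77 to 1.19 in U-937. UNC5A, a gene on the opposite strand that overlaps HK3, averaged 2.537 FPKM under DMSO and 1.997 FPKM under honokiol in U-937, and its part in the HK3 values was not tested.

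HK2, the inducible hexokinase bound to mitochondria (ENSG00000159399, chr2:74834127-74893359, plus strand), stood the other way in U-937, at 27.5, 33.97 and 32.8 FPKM under DMSO and 21.5, 20.7 and 20.2 FPKM with honokiol. The 3 honokiol libraries lay close together and below every control (edgeR log2 fold change -0.68, SE 0.12, unadjusted p = 0.000421, adjusted p = 0.0711). Its adjusted p was the lowest of the 37 members tested and missed the threshold of 0.05. In THP-1 the HK2 libraries overlapped, at 17.7, 25.1 and 34.1 FPKM against 24.3, 15.02 and 27.5 FPKM (edgeR log2 fold change -0.25, adjusted p = 0.712). HK1, the ubiquitous isoform, overlapped in both lines (edgeR log2 fold change 0.21, adjusted p = 0.639 in THP-1 and edgeR log2 fold change -0.16, adjusted p = 0.606 in U-937). ADPGK, which phosphorylates glucose with ADP, was at 15.3, 17.1 and 26.4 FPKM under DMSO and 29.9, 26.3 and 29.03 FPKM under honokiol in THP-1, with DMSO replicate 3 inside the honokiol range (edgeR log2 fold change 0.49, SE 0.19, unadjusted p = 0.0334, adjusted p = 0.345).

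As shares of the summed hexokinase FPKM, HK2 took 39.23%, 42.75% and 46.5% in the U-937 controls and 35.21%, 30.9% and 30.87% with honokiol. The HK3 share was 3.59%, 5.37% and 4.56% under DMSO and 10.12%, 13.57% and 8.7% under honokiol, while HK1 stayed the main isoform at 48.94% to 60.43%. In THP-1, HK3 held more of the total, 14.0% to 18.27% under DMSO and 17.19% to 26.76% under honokiol, and these ranges overlapped. Shares of 3 libraries against 3 cannot go below p = 0.1 in an exact permutation test, so they are given as values.

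GPI, the isomerase that makes fructose 6-phosphate (ENSG00000105220, chr19:34359480-34402413, plus strand), was lower in both lines. It was at 98.9, 95.1 and 89.01 FPKM in the U-937 DMSO libraries and 73.5, 69.4 and 65.98 FPKM with honokiol, without overlap (edgeR log2 fold change -0.53, SE 0.13, unadjusted p = 0.00422, adjusted p = 0.142). In THP-1 it was at 35.4, 46.0 and 58.8 FPKM in the DMSO libraries and 37.2, 28.7 and 36.04 FPKM with honokiol, where the first control lay inside the honokiol range (edgeR log2 fold change -0.50, SE 0.19, unadjusted p = 0.0267, adjusted p = 0.326). PFKP, the platelet isoform of phosphofructokinase (ENSG00000067057, chr10:3066333-3137715, plus strand), was at 51.5, 47.9 and 46.6 FPKM in the U-937 DMSO libraries and 32.6, 36.8 and 33.1 FPKM with honokiol, again without overlap (edgeR log2 fold change -0.60, SE 0.13, unadjusted p = 0.00151, adjusted p = 0.0989). The PFKP share of the phosphofructokinase FPKM went from 63.68%, 57.88% and 55.55% to 48.19%, 46.43% and 49.82% in U-937, and the liver isoform PFKL held most of the rest, with 36.01%, 41.74% and 44.06% against 51.19%, 52.76% and 49.49%. PFKL itself had a log2 fold change of 0.03 (95% interval -0.28 to 0.34). In THP-1, PFKP overlapped between the groups (edgeR log2 fold change -0.24, adjusted p = 0.545).

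**Figure D3:**
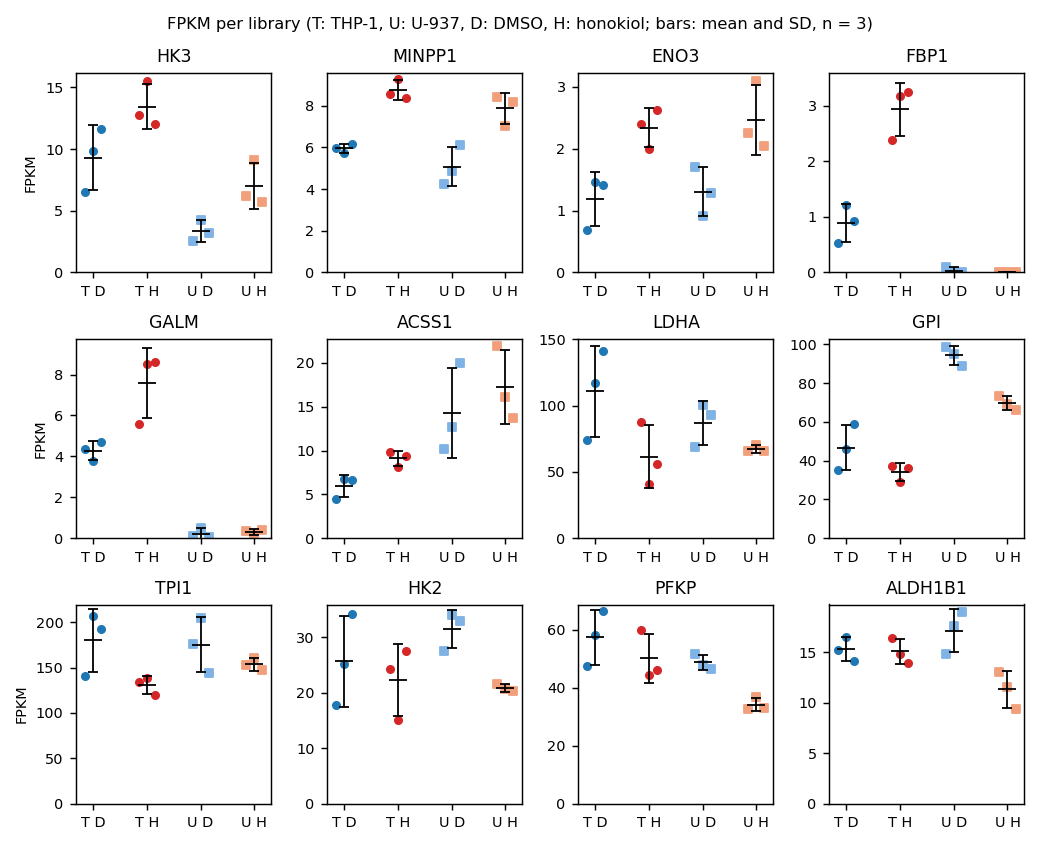
FPKM of 12 members in each library (points) with the mean and SD of 3 (bars), for THP-1 (T, circles) and U-937 (U, squares) under DMSO (D) and honokiol (H), each y axis from 0. HK3, MINPP1 and ENO3 lie higher with honokiol in both lines, LDHA and GPI have lower means, HK2, PFKP and ALDH1B1 separate in U-937, and FBP1 and GALM are near 0 in U-937.

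In the middle of the pathway, TPI1, the triose phosphate isomerase (ENSG00000111669, chr12:6867119-6870948, plus strand), was at 141, 207 and 192 FPKM under DMSO and 134, 138 and 119 FPKM under honokiol in THP-1. The honokiol libraries lay just under the controls, 138 FPKM at most against 141 FPKM at least (edgeR log2 fold change -0.51, SE 0.15, unadjusted p = 0.0101, adjusted p = 0.266). In U-937 they overlapped (edgeR log2 fold change -0.28, adjusted p = 0.416). GAPDH did not overlap in U-937, with its values given above (edgeR log2 fold change -0.36, SE 0.14, unadjusted p = 0.0341, adjusted p = 0.263), and overlapped in THP-1 (edgeR log2 fold change -0.32, adjusted p = 0.444). PGK1, which makes the first ATP of the pathway, was at 48.7, 76.98 and 87.7 FPKM under DMSO and 62.96, 45.7 and 46.8 FPKM under honokiol in THP-1 (edgeR log2 fold change -0.50, SE 0.21, unadjusted p = 0.0499, adjusted p = 0.382). Its first control lay within the honokiol range. ALDOA, the main aldolase, had 95% intervals of -0.85 to 0.21 in THP-1 and -0.69 to 0.39 in U-937 on the log2 scale, and those of ALDOC, the brain isoform, were -1.93 to 0.16 and -1.07 to 0.20.

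MINPP1, a phosphatase of inositol phosphates that also opens a side route from 2,3-bisphosphoglycerate (ENSG00000107789, chr10:87504875-87553461, plus strand), stood higher with honokiol in both lines. It was at 5.99, 5.74 and 6.14 FPKM in the THP-1 DMSO libraries and 8.55, 9.30 and 8.39 FPKM with honokiol (edgeR log2 fold change 0.50, SE 0.14, unadjusted p = 0.00788, adjusted p = 0.244). In U-937 it was at 4.26, 4.86 and 6.12 FPKM in the DMSO libraries and 8.44, 7.02 and 8.16 FPKM with honokiol (edgeR log2 fold change 0.55, SE 0.18, unadjusted p = 0.0139, adjusted p = 0.198). The groups did not overlap in either line, and without any single library its log2 fold change stayed at 0.45 to 0.55 in THP-1 and 0.46 to 0.67 in U-937. PGAM1, the main phosphoglycerate mutase, overlapped in both lines. PGAM4 is a near copy of PGAM1 that lies on the strand opposite to PGK1, so its reads cannot be assigned with certainty (in THP-1, edgeR log2 fold change -0.52, SE 0.21, unadjusted p = 0.04, adjusted p = 0.362).

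Among the enolases, ENO1 carried nearly all of the FPKM and ENO3, the muscle isoform (ENSG00000108515, chr17:4948092-4957131, plus strand), was the isoform with an unadjusted p under 0.05. ENO3 was at 0.69, 1.47 and 1.42 FPKM in the THP-1 DMSO libraries and 2.40, 2.0 and 2.63 FPKM with honokiol (edgeR log2 fold change 0.92, SE 0.28, unadjusted p = 0.0119, adjusted p = 0.282). In U-937 it was at 1.71, 0.92 and 1.28 FPKM in the DMSO libraries and 2.25, 3.10 and 2.04 FPKM with honokiol (edgeR log2 fold change 0.80, SE 0.29, unadjusted p = 0.0253, adjusted p = 0.236). The groups did not overlap in either line. ENO3 is uncertain: PFN1, the abundant profilin gene, overlaps it on the other strand with group means of 424 to 530.5 FPKM, and whether the counting used strand is not given in the sources used here. PFN1 averaged 424 FPKM under DMSO and 493 FPKM under honokiol in THP-1, and 530.5 and 474 FPKM in U-937. For ENO1 the log2 fold change was -0.49 in THP-1 (edgeR adjusted p = 0.388) and -0.20 in U-937 (edgeR adjusted p = 0.509). PKM, the pyruvate kinase of non-liver cells, was at 117, 128 and 179 FPKM under DMSO and 126, 89.01 and 98.01 FPKM under honokiol in THP-1, with overlap (edgeR log2 fold change -0.48, SE 0.20, unadjusted p = 0.0414, adjusted p = 0.364).

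LDHA, the lactate-forming dehydrogenase subunit (ENSG00000134333, chr11:18394560-18408425, plus strand), was at 73.95, 117 and 142 FPKM in the THP-1 DMSO libraries and 87.5, 41.2 and 55.9 FPKM with honokiol. Its log2 fold change was among the larger ones of the members, yet honokiol replicate 1 lay above the first control (edgeR log2 fold change -0.89, SE 0.30, unadjusted p = 0.0196, adjusted p = 0.301). Leaving out single libraries gave -1.23 to -0.66. In U-937 it was at 68.4, 100.3 and 92.7 FPKM in the DMSO libraries and 65.6, 70.4 and 65.9 FPKM with honokiol, where the first control lay inside the honokiol range (edgeR log2 fold change -0.46, SE 0.15, unadjusted p = 0.015, adjusted p = 0.201). LDHB, the subunit that favours pyruvate, was at 136, 171 and 186 FPKM in the THP-1 DMSO libraries and 194, 194 and 192 FPKM with honokiol without overlap (edgeR log2 fold change 0.19, adjusted p = 0.557). The LDHA share of both subunits was 35.24%, 40.63% and 43.27% in the THP-1 controls and 31.07%, 17.51% and 22.58% with honokiol. In U-937 it was 42.07%, 41.09% and 36.16% under DMSO and 29.2%, 33.96% and 39.12% under honokiol, with overlap. LDHA and GPI are the genes lower in both lines whose upstream windows are shown above.

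**Figure D4:**
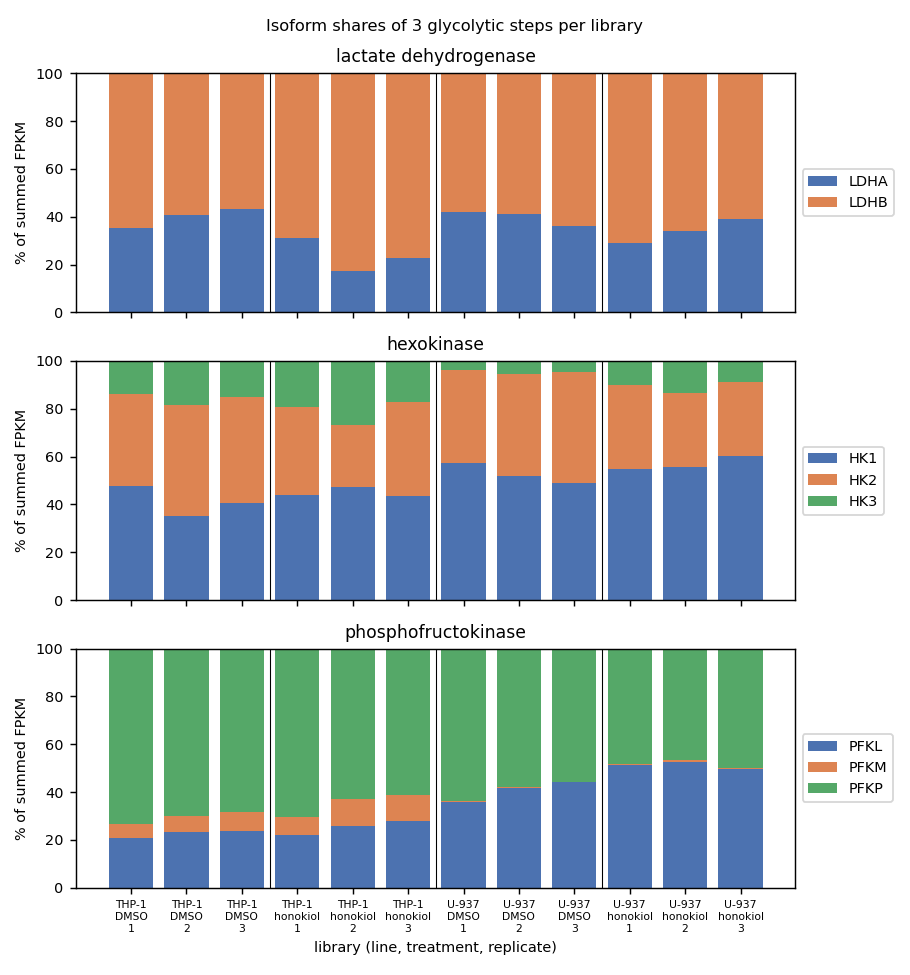
Share of the summed FPKM of each isoform (y axis, percent) in each of the 12 libraries for lactate dehydrogenase, hexokinase and phosphofructokinase, with lines between the groups. LDHA takes 17.51% to 31.07% in THP-1 with honokiol against 35.24% to 43.27% with DMSO, and HK3 takes 8.7% to 13.57% in U-937 with honokiol against 3.59% to 5.37%.

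The pyruvate dehydrogenase genes showed small differences. PDHA1, PDHB, DLAT, DLD and PDHX had log2 fold changes of -0.15 to 0.12 in THP-1 and -0.18 to 0.33 in U-937, and none had an unadjusted edgeR p under 0.05. DLD, a subunit shared with other dehydrogenases, was at 12.2, 16.7 and 19.6 FPKM under DMSO and 22.5, 21.9 and 20.3 FPKM with honokiol in U-937, without overlap (edgeR log2 fold change 0.33, adjusted p = 0.338).

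On the gluconeogenic side only FBP1 and the glucose-6-phosphatase G6PC3 passed the level filter. FBP1, fructose-1,6-bisphosphatase 1 (ENSG00000165140, chr9:94603133-94640137, minus strand), had the largest log2 fold change of the members in THP-1. It was at 0.53, 1.22 and 0.93 FPKM in the THP-1 DMSO libraries and 2.39, 3.17 and 3.25 FPKM with honokiol, with deposited counts of 69, 160 and 117 against 373, 461 and 449. The lowest honokiol library stood above the highest control (edgeR log2 fold change 1.67, SE 0.33, unadjusted p = 0.000964, adjusted p = 0.144), and without any single library the log2 fold change was 1.43 to 1.94. FBP1 overlaps PCAT7 on the other strand, which averaged 0.493 FPKM under DMSO and 0.567 FPKM under honokiol. G6PC3 was at 5.04, 6.44 and 5.09 FPKM under DMSO and 7.79, 7.17 and 6.95 FPKM with honokiol in U-937 (edgeR log2 fold change 0.31, adjusted p = 0.352).

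Among the side entries, GALM, which interconverts the anomers of hexoses, was at 4.35, 3.77 and 4.71 FPKM in the THP-1 DMSO libraries and 5.59, 8.51 and 8.60 FPKM with honokiol (edgeR log2 fold change 0.76, SE 0.21, unadjusted p = 0.00705, adjusted p = 0.235). ACSS1, the mitochondrial enzyme that activates acetate, was at 4.48, 6.70 and 6.65 FPKM in the THP-1 DMSO libraries and 9.85, 8.09 and 9.35 FPKM with honokiol (edgeR log2 fold change 0.57, SE 0.16, unadjusted p = 0.00803, adjusted p = 0.246). Neither overlapped, and both kept an unadjusted p under 0.05 without any single library. PGM2, a phosphopentomutase, was lower without overlap, at 28.3, 30.03 and 28.6 FPKM under DMSO and 27.9, 23.99 and 19.5 FPKM under honokiol in THP-1 (edgeR log2 fold change -0.34, adjusted p = 0.409). ALDH1B1, a mitochondrial aldehyde dehydrogenase, was at 14.9, 17.6 and 18.96 FPKM in the U-937 DMSO libraries and 13.04, 11.6 and 9.37 FPKM with honokiol, below every control (edgeR log2 fold change -0.69, SE 0.16, unadjusted p = 0.00243, adjusted p = 0.117). In THP-1 it was at 15.2, 16.6 and 14.2 FPKM under DMSO and 16.5, 14.8 and 13.99 FPKM under honokiol, with overlap (edgeR log2 fold change -0.08, adjusted p = 0.834). ACSS2, ALDH3B1 and AKR1A1, which handle acetate and aldehydes in the cytosol, stood higher in U-937 without overlap and had edgeR adjusted p of 0.446, 0.347 and 0.387.

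The THP-1 counts depended on single libraries. DMSO replicate 3 held the highest normalized value for 19 of the 42 members tested in THP-1, against 14.1% of all genes, and honokiol replicate 2 the lowest for 15, against 12.2%. The members lower at an unadjusted p under 0.05 went from 6 to 1 without DMSO replicate 3, where the share of all genes rose from 6.22% to 7.69%. They also went to 1 without honokiol replicate 2 (3.77% of all genes) and without honokiol replicate 3 (2.91%). Without DMSO replicate 1, the library with the high mitochondrial share, they went to 10 (6.04% of all genes) and the higher ones from 7 to 5 (7.13%). Without honokiol replicate 1 the counts were also 10 (7.19%) and 5 (6.91%). In U-937, DMSO replicate 1 held the lowest value for 15 of 37 members (23.7% of all genes). Without that library the members at an unadjusted p under 0.05 went from 9 to 12 (16.4% of all genes). The adjusted count was 0 in each of these fits. The part of mitochondrial RNA or of single libraries in these values was not tested.

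The question whether the lines responded differently was put to a fit of all 12 libraries with an interaction term. edgeR called 0 of 42 members (0.111% of the 16283 genes tested) and DESeq2 called 0 (1.50% of all genes), and 3 had an unadjusted p under 0.05 (9.37% of all genes): ALDH1B1, ALDH3A2 and FBP1. ALDH3A2 and FBP1 passed the level filter in THP-1 alone and lay at or under 0.29 FPKM in every U-937 library, so their U-937 responses rest on values near 0. ALDH1B1 differed by -0.62 on the log2 scale, U-937 minus THP-1 (95% interval -1.07 to -0.17, edgeR adjusted p = 0.369), and FBP1 by -4.15 (95% interval -7.89 to -0.41, edgeR adjusted p = 0.482). FBP1 had deposited counts of 12, 0 and 0 in the U-937 controls and 0, 0 and 2 with honokiol, and without the first of these libraries its difference turned to 1.04, so that its sign rests on that library. For HK2 the interval of the difference was -1.13 to 0.24, for PFKP -0.82 to 0.08, for HK3 -0.25 to 1.22 and for LDHA -0.38 to 1.22. Each holds 0 and also sizes as large as the responses themselves, so the responses of these genes were neither shown to differ nor shown to be alike.

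Without honokiol, the members differed between the lines no more often than all genes did. Of the 42 members tested between U-937 and THP-1 under DMSO, edgeR called 18, against 47.3% of the 14617 genes tested, 8 higher in U-937 (22.0% of all genes) and 10 lower (25.4%). With a log2 fold change over 1 in size as well, 11 members passed (32.4% of all genes). ALDH2, ALDH3A2, FBP1, GALM and PFKM, which passed the level filter in THP-1 and not in U-937, made up 5 of the 10 lower calls and 5 of these 11. All of them but GALM passed the filter of this comparison through THP-1 alone and so had to lie lower in U-937. GALM also reached the limit in U-937 DMSO replicate 2, at 0.51 FPKM. The members' median log2 fold change was -0.07 against -0.04 over all genes.

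Higher in U-937 were PGK1 (edgeR log2 fold change 1.07, SE 0.22), GPI (0.97, SE 0.20), PKM (0.93, SE 0.28), PFKL (0.80), HK1 (0.63), PDHA1 (1.63), ACSS1 (1.21) and ALDH9A1 (0.60). PDHA1, the catalytic subunit of pyruvate dehydrogenase, was at 30.3, 35.6 and 40.5 FPKM in U-937 and 11.2, 10.2 and 11.6 FPKM in THP-1 (edgeR adjusted p = 7.71e-05). Its groups lay far apart, as did those of GPI, at 98.9, 95.1 and 89.01 FPKM against 35.4, 46.0 and 58.8 FPKM (edgeR adjusted p = 0.00412).

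Lower in U-937 were ALDH2, PFKM, ALDH3A2, FBP1, GALM, ALDOC, HK3, PGM2, PGAM1 and BPGM. ALDH2, the mitochondrial acetaldehyde dehydrogenase, was at 6.86, 9.59 and 14.2 FPKM in THP-1 and 0.07, 0.06 and 0.06 FPKM in U-937 (edgeR log2 fold change -7.32, SE 0.33, adjusted p = 3.02e-06). PFKM, the muscle phosphofructokinase, was at 3.97, 5.49 and 7.34 FPKM against 0.25, 0.32 and 0.32 FPKM (edgeR log2 fold change -4.23, adjusted p = 8.53e-06). ALDOC was at 9.76, 17.9 and 28.1 FPKM against 3.65, 2.21 and 2.98 FPKM (edgeR log2 fold change -2.68, adjusted p = 0.000536). These groups did not overlap. For ALDH2 and PFKM, as for ALDH3A2 and FBP1, the level filter had fixed the direction and the lack of overlap in advance. The values for FBP1 and GALM were -4.78 (SE 1.18) and -4.33 (SE 0.77), and the size for FBP1 depends on the 12 counts of 1 U-937 library. GALM had deposited counts of 16, 112 and 11 in the U-937 controls, and without the second its log2 fold change was -5.87. ALDH3A2, another aldehyde dehydrogenase, was at -3.29, HK3 at -1.53, PGM2 at -1.09, PGAM1 at -0.78 and BPGM, which makes 2,3-bisphosphoglycerate, at -0.70 in edgeR log2 fold change. Of the 18 calls, 5 did not hold without some library. PGAM1 lost its call without U-937 replicate 1, PKM without THP-1 replicate 1 or 2 or U-937 replicate 1, and HK1 without THP-1 replicate 1 or 2 or U-937 replicate 1 or 2. BPGM lost it without THP-1 replicate 3 or any 1 U-937 library, and ALDH9A1 without any 1 library but U-937 replicate 1. The edgeR adjusted p was then 0.0511 to 0.189. LDHA, LDHB, GAPDH, TPI1, HK2 and PFKP were not called, with log2 fold changes of -0.39, -0.35, -0.27, -0.08, 0.25 and -0.28.

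**Figure D5:**
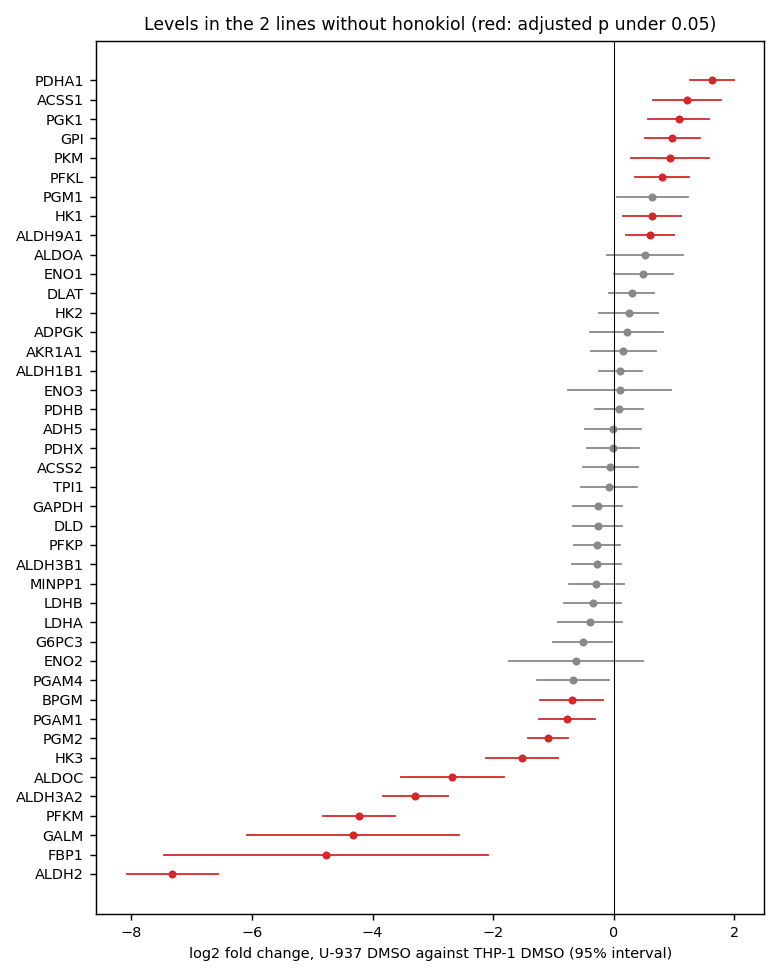
Log2 fold change of U-937 against THP-1 under DMSO (x axis, edgeR, with its 95% interval) for the 42 members tested, sorted, with adjusted p under 0.05 in red. ALDH2, which passed the level filter through THP-1 alone, is farthest to the left at -7.32 and PDHA1 farthest to the right at 1.63.

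The genes around the pathway, in lists that are not part of it, were not called by edgeR under honokiol in either line. Of the glucose and lactate transport list, the level filter left 12 of 15 genes for THP-1 and 10 for U-937. By edgeR 2 and 4 of them had an unadjusted p under 0.05 (13.1% and 16.7% of all genes) and 0 passed by adjusted p. DESeq2 called 1 in each line (SLC2A14 in THP-1 and SLC2A1 in U-937), against 3.42% and 5.76% of all genes. The 2 in THP-1 were SLC2A14, higher, and SLC2A6, lower. The 4 in U-937 were SLC2A1 and SLC2A3, lower, and MPC2 and SLC2A5, higher. SLC2A1, the basal glucose transporter GLUT1, was at 9.16, 11.1 and 5.93 FPKM in the U-937 DMSO libraries and 4.46, 4.41 and 4.28 FPKM with honokiol, without overlap (edgeR log2 fold change -1.09, SE 0.23, unadjusted p = 0.00153, adjusted p = 0.0989). In THP-1 SLC2A1 overlapped (edgeR log2 fold change -0.46, adjusted p = 0.611). SLC2A14, a near copy of SLC2A3 whose reads may be shared with it, was at 1.23, 1.10 and 2.07 FPKM under DMSO and 3.88, 5.11 and 6.36 FPKM under honokiol in THP-1 (edgeR log2 fold change 1.75, adjusted p = 0.083).

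Of the regulators of flux, the level filter left 17 of 20 for THP-1 and 14 for U-937. By edgeR 5 and 2 of them had an unadjusted p under 0.05 (13.1% and 16.7% of all genes) and 0 passed by adjusted p. DESeq2 called 4 in THP-1 (EPAS1, FOXO1, PDK4 and TXNIP) and 1 in U-937 (TXNIP), against 3.42% and 5.76% of all genes. PDK4, a kinase that shuts pyruvate dehydrogenase, was at 0.17, 0.07 and 0.36 FPKM in the THP-1 DMSO libraries and 2.14, 4.97 and 3.97 FPKM with honokiol (edgeR log2 fold change 4.14, SE 0.59, unadjusted p = 0.000113, adjusted p = 0.0684). PDK4 passed the level filter in THP-1 through the honokiol libraries alone and so had to lie higher with honokiol. In U-937 it did not exceed 0.01 FPKM. TXNIP, an arrestin that removes glucose transporters from the membrane, was at 42.01, 47.9 and 49.4 FPKM under DMSO and 36.4, 30.7 and 31.4 FPKM under honokiol in THP-1 and at 3.60, 5.64 and 4.93 FPKM under DMSO and 9.31, 12.6 and 14.5 FPKM under honokiol in U-937. The lines stood in opposite directions without overlap in either, and the difference itself was 1.82 on the log2 scale, U-937 minus THP-1 (SE 0.25, edgeR adjusted p = 0.0274). Its size changed little between fits, at 1.68 to 1.85 under 10 alternatives and 1.66 to 1.98 without single libraries, but the call was lost in 5 of the 10 and in 8 of the 12 fits without a library.

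Of the 14 genes of the pentose phosphate pathway and glycogen, all were tested in both lines. By edgeR 1 (THP-1) and 3 (U-937) had an unadjusted p under 0.05 (13.1% and 16.7% of all genes) and 0 passed by adjusted p. DESeq2 called 0 and 2 (GYS1 and PYGL), against 3.42% and 5.76% of all genes. GYS1, glycogen synthase, had log2 fold changes of -0.90 and -0.66 (edgeR adjusted p = 0.339 and 0.169), and the transketolase TKT 0.34 and -0.37, without overlap in either line. The TKT difference was -0.73 (95% interval -1.15 to -0.30, edgeR adjusted p = 0.298), and DESeq2 called it. Of 13 hypoxia targets outside the pathway, 0 of 11 tested in THP-1 and 3 of 10 in U-937 had an unadjusted p under 0.05 (13.1% and 16.7% of all genes). The 3 did not go one way. By adjusted p edgeR called 0 in each line. DESeq2 called DDIT4 and BNIP3L in U-937 (5.76% of all genes) and 0 of the 11 in THP-1 (3.42%). DDIT4, an inhibitor of mTORC1, was at 46.9, 23.3 and 35.5 FPKM in the U-937 DMSO libraries and 189, 183 and 127 FPKM with honokiol (edgeR log2 fold change 2.13, SE 0.29, unadjusted p = 7.52e-05, adjusted p = 0.0598). BNIP3L, a mitophagy receptor, was higher (edgeR log2 fold change 0.93, adjusted p = 0.0598) and its relative BNIP3 lower (edgeR log2 fold change -0.55, adjusted p = 0.264) in U-937, both without overlap.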

How the data were processed

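mRNA of 12 libraries of THP-1 and U-937 cells was measured by poly(A)-selected paired-end sequencing. The authors deposited 1 table with estimated counts and FPKM per gene. Per the submitters' processing notes, HISAT2 2.0, StringTie 1.3.0 and Bowtie 0.12.2 were named, and a mouse build, which goes against the human gene IDs; all 61 members overlapped their gene in GENCODE 29 (GRCh38) on the same chromosome, 18 with identical ends. The strand setting of the counting is not given in the sources used here, and the deposited counts need not be reads: the value 4 occurs 17264 times against 6764 for 3 and 4016 for 5. The authors' annotation columns supplied the pathway numbers. 1 gene of the pathway is not reported here.

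The counts were rounded to whole numbers and fitted per comparison with edgeR 4.0.16 (quasi-likelihood, TMM) in R 4.3.3 over genes at 0.5 FPKM or more in at least 3 libraries, with Benjamini-Hochberg adjustment over all genes tested. The study's criterion adds an absolute log2 fold change over 1. The code was tested on simulated data. SE and 95% intervals follow from the F statistic and its degrees of freedom. Shares and levels use FPKM, and all intervals cover the spread between libraries only. Alternatives were limma 3.58.1 on log2(FPKM + 0.5), also with pseudocounts of 0.1 and 1, an FPKM limit of 1 or none, RLE factors, library totals only, DESeq2 1.42.0, counts divided by 4, a replicate block, one fit of 12 libraries and leaving out each library. The genes named were those with an unadjusted p under 0.05 in a line, the leading gene of each step and the members called between the lines, with other genes of the lists and a few members whose groups did not overlap chosen after their values were seen. The members, lists and tests were chosen with earlier results of these data known.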

Additional observations from a re-analysis of the deposited data

Results flagged for a closer look

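The response of TXNIP, a gene outside the pathway that was looked at with the regulators of flux, differed between the lines in the test of the difference itself. Honokiol minus DMSO was 1.82 higher in U-937 than in THP-1 on the log2 scale (SE 0.25, edgeR adjusted p = 0.0274). In THP-1 the log2 fold change was -0.55 (SE 0.13, edgeR adjusted p = 0.172), and in U-937 it was 1.28 (SE 0.22, edgeR adjusted p = 0.0711). All 3 honokiol libraries lay below all controls in THP-1 and above all of them in U-937. The adjusted p ran from 6.36e-07 (DESeq2) to 0.168 (edgeR with a replicate block) over the alternatives and from 0.0175 to 0.105 without single libraries. The labels do not say which line received which dose, so line and dose cannot be told apart.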

How the results depend on the processing

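DESeq2 called 2 members with honokiol in THP-1 (3.42% of all genes) and 5 in U-937 (5.76%), where edgeR and limma called 0, and 1 (ALDH1B1) was called in U-937 in one fit of all 12 libraries (1.27%). At an unadjusted p under 0.05 they were 13 in THP-1, 9 in U-937 and, for the difference between the lines, 3, and leaving out single libraries these counts ran from 7 to 15, 7 to 12 and 1 to 5. Between the lines 18 became 11 with a log2 fold change over 1 (this criterion and the unadjusted count for the difference were chosen after seeing the data). Leaving out a library gave 12 to 16, where without a THP-1 control 38 members were tested, since 4 fell under the level limit, as only 2 libraries of that line remained. Some values near 0 in U-937 turned sign, none of them called: ALDH9A1 (0.08, 0.081 and 0.078 under limma with pseudocounts of 0.5, 0.1 and 1, 0.057 with library totals only), LDHB (0.003 under limma with each pseudocount), PGAM1 (0.031 under limma with each pseudocount, 0.014 with library totals only) and PGM1 (-0.015 with no FPKM limit, -0.011 with RLE factors and with DESeq2, -0.012 in one fit of all 12 libraries). Without single libraries the values that turned ran from -0.176 to 0.049 for ALDH9A1, -0.36 to 0.043 for ALDOA, -0.275 to 0.058 for LDHB, -0.198 to 0.038 for PGAM1, -0.136 to 0.103 for PGM1 and -0.359 to 0.13 for PKM in U-937, from -0.211 to 0.107 for G6PC3 in THP-1, and from -6.841 to 1.036 for the FBP1 difference. The cause was not tested. Of the 787 values computed for named genes under the other alternatives, 743 kept their direction and their side of the threshold, 24 passed it, 5 lost it and 15 turned sign. Of the 441 without a library these were 420, 0, 8 and 13. For genes outside the pathway the alternatives were applied after seeing the data. The TXNIP difference lost its call under limma with pseudocounts of 0.5, 0.1 and 1 (adjusted p = 0.0711, 0.123 and 0.0665), with counts divided by 4 (edgeR adjusted p = 0.0633) and with the replicate block (edgeR adjusted p = 0.168). It kept it without THP-1 honokiol replicate 1, U-937 DMSO replicates 1 or 2, or U-937 honokiol replicate 1, and lost it without any other library. Within a line, same-numbered replicates were as a set not more alike than different-numbered ones. Correlations of same-numbered deviations were -0.244 to 0.171 in THP-1 and -0.203 to -0.136 in U-937. Those of different-numbered deviations were -0.133 to 0.322 and -0.181 to 0.363. Between the lines under DMSO the same-numbered correlations were all positive, at 0.064 to 0.198, against -0.205 to 0.066 for different numbers. Whether the numbers mark shared handling of the 2 lines was not tested. With a replicate block 0 members were called in THP-1, 0 in U-937, 0 for the difference and 19 between the lines.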
